A study of Homo sapiens with 36 samples.

Results

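The collagen genes are the protein-coding genes of the deposited count table whose symbol is COL, a number, the letter A and a number. The rule found 44 genes among 19404 protein-coding genes with a symbol, and it used no measured value. They were followed by RNA-seq in A2780, a line of human ovarian cancer cells, over 12 conditions of 3 libraries each (36 libraries). The lines were the parental, platinum-sensitive cells (wt), a platinum-resistant line derived from them by long exposure to cisplatin (cis), and a population that outgrew the resistant line when serine and glycine were withheld (cis SSP). Each line was grown in complete medium or in medium lacking serine and glycine (-SG, with dialyzed serum), and each of these with or without carboplatin (carbo), a platinum compound that damages DNA. Every comparison therefore rests on cells of a single parental line and on 1 resistant line derived from it. Libraries of 1 condition are described as technical replicates, so p-values measure only the spread between libraries, and the dose of carboplatin is not given here because the labels leave its unit unclear.

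Collagens are the main structural proteins of the extracellular matrix. Each molecule is a triple helix of α chains, made of 1 kind of chain or of several, and each chain has its own gene. In the helix glycine recurs at a fixed spacing along each chain, and proline and lysine residues are hydroxylated before the chains are secreted. Fibrillar collagens (types I, II, III, V and XI) form fibrils, and FACIT collagens (such as types XII and XIV) sit on the surface of fibrils. Type IV collagens build the network of basement membranes, type VI collagen forms beaded filaments around cells, and the transmembrane collagens (such as types XVII and XXIII) are anchored in the cell membrane. In carcinomas most fibrillar collagen is made by fibroblasts of the stroma, whereas these libraries hold a cultured cell line alone.

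Each library held 13074937 to 20441582 counts on genes. Replicate 1 of cis SSP and replicate 2 of cis SSP -SG, numbered in library order, stood apart from the other libraries of their conditions. Numbers of called collagen genes that rest on them, and some values of single genes, are also given without them. Replicate 2 of wt -SG carbo and replicate 1 of cis -SG carbo also differed from their conditions, and the last comparisons give counts with and without them. Values are CPM (counts scaled to a common library size), adjusted by the trimmed mean of M-values (TMM) over the 36 libraries. The cultured line was checked against marker genes. The ovarian lineage genes were uneven: PAX8, a marker of Müllerian epithelium, averaged 0.165 CPM in wt, 0.0556 CPM in cis and 0.0427 CPM in cis SSP, and PAX2, a related factor, had 165 CPM in wt and 0 CPM in cis. The mesenchymal filament gene VIM was at 3069.5, 1828 and 2427 CPM in the 3 lines, and ZEB1 of the same list at 97.2, 78.1 and 47.9 CPM. The list was uneven too, with CDH2 at 208, 12.5 and 1059.5 CPM and FN1 at 0.827, 0.392 and 0.518 CPM. Epithelial markers were low (values stand with the first comparison), endothelial markers (VWF and CDH5) summed to at most 0.42 CPM in every library, and the leukocyte marker PTPRC reached at most 0.0652 CPM.

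A collagen gene was counted as detected if its mean was at least 1 CPM in any of the 12 conditions. By this rule 28 of the 44 genes (63.6%) were detected, against 12827 of 19404 (66.1%) of all protein-coding genes. Among the classes, 9 of 11 fibrillar genes, 6 of 10 FACIT genes, 4 of 6 type IV genes, 3 of 5 type VI genes and 2 of 4 transmembrane genes passed. Both multiplexins (COL15A1 and COL18A1, basement membrane proteins that carry glycosaminoglycan chains), the anchoring fibril gene COL7A1 and COL26A1 also passed. None of the 3 short-chain genes did. Just inside the limit were COL9A3 with 1.02 CPM, COL15A1 with 1.04 CPM and COL20A1 with 1.12 CPM in their highest condition. Just outside were COL5A3 with 0.984 CPM in wt -SG carbo and COL13A1 with 0.710 CPM. The other genes under the limit were COL4A3, COL4A4, COL6A5, COL6A6, COL8A1, COL8A2, COL9A1, COL10A1, COL19A1, COL21A1, COL22A1, COL24A1, COL25A1 and COL28A1.

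**Figure D1:**
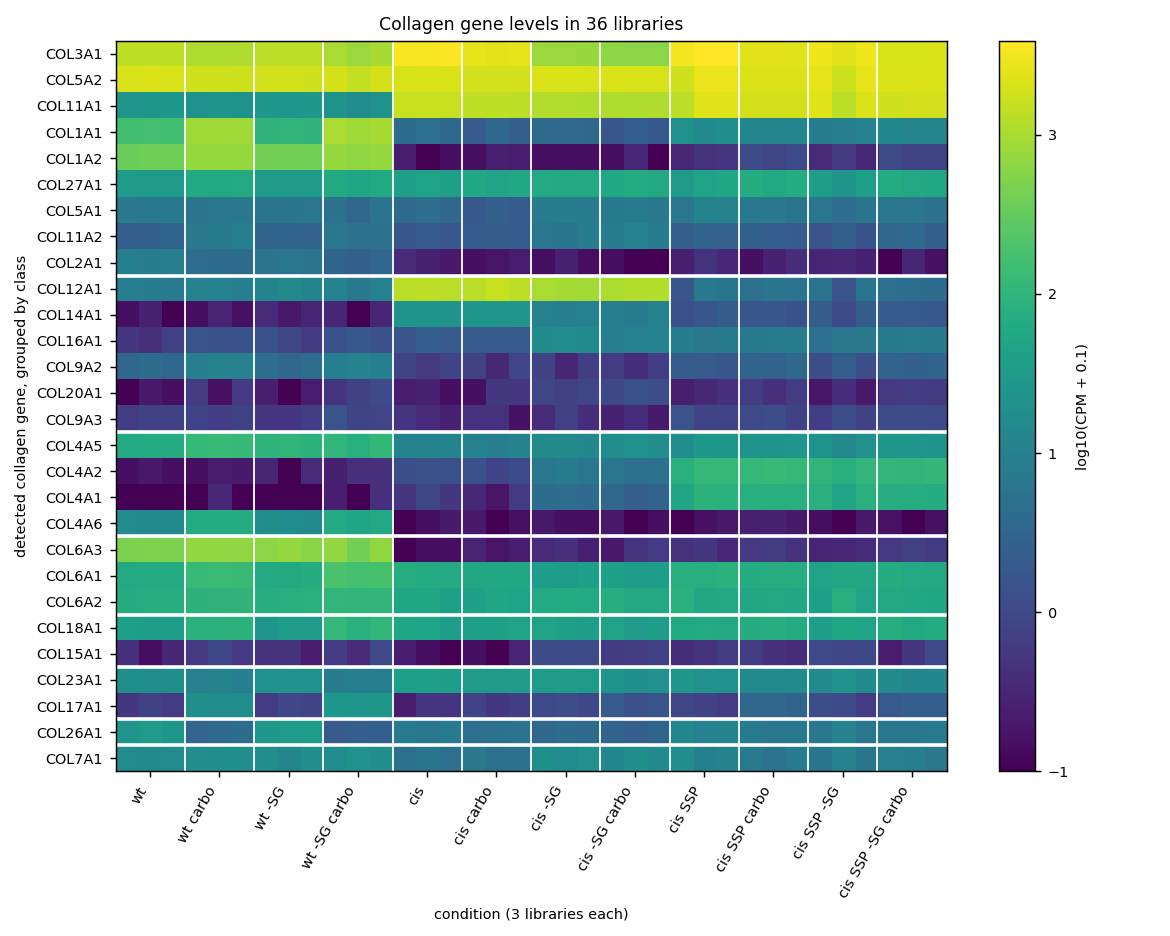
Level of the 28 detected collagen genes (rows, by class) in the 36 libraries (columns, by condition), as log10 of CPM plus 0.1. Brighter colours mark higher levels. COL3A1 and COL5A2 are bright in every library. COL1A2, COL6A3 and COL4A6 are brighter in the wt libraries than in the others, and COL4A1 and COL4A2 are brightest in the cis SSP libraries.

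The detected genes differed in level by several orders of magnitude. Per kilobase of transcript (CPM per kb, mean ± SD, n = 3), the highest in wt was COL5A2 at 307 ± 3.33, a type V chain that joins thin fibrils and limits their width. COL3A1, the chain of type III collagen of elastic tissues, followed at 259.5 ± 2.74 CPM per kb. Then came the type I chain COL1A2 at 72.7 ± 2.37, the type VI chain COL6A3 at 46.5 ± 0.685 and the other type I chain COL1A1 at 27.5 ± 0.270 CPM per kb. The libraries of neighbours in this order did not overlap.

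In cis the order per length was COL3A1 at 646 ± 9.95, COL5A2 at 309 ± 2.30, COL11A1 (a chain of the type XI collagen of cartilage fibrils) at 219 ± 2.71 and COL12A1 (a FACIT) at 112 ± 2.75 CPM per kb, followed at a distance by COL6A1 at 16.1 ± 0.819 CPM per kb. In cis SSP it was COL3A1 at 665 ± 74.8, COL5A2 at 369 ± 86.9, COL11A1 at 272 ± 74.8, COL6A1 at 19 ± 0.986, COL6A2 at 18.9 ± 3.88 and COL4A2 at 16.2 ± 2.86 CPM per kb. In cis SSP the ranges of COL5A2 and COL11A1 overlapped, as did those of COL6A1 and COL6A2 and those of COL6A2 and COL4A2, so their order is not set beyond their spread.

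Summed over the 44 genes, collagen transcripts took 4951 ± 53.8 CPM in wt (mean ± SD, n = 3), 8872 ± 58.1 CPM in cis and 8711 ± 1592 CPM in cis SSP. The sum was 5346 ± 117 CPM in cis -SG and 5862 ± 39.5 CPM in wt carbo. COL5A2 was the gene with the highest CPM in the 4 wt conditions, in cis -SG, in cis -SG carbo and in cis SSP -SG carbo, and COL3A1 was the highest in the other 5 conditions. These sums follow a few genes, since COL5A2 alone made up 42.3% of the sum in wt and COL3A1 40.0% of that in cis.

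The first comparison asks which collagen genes differ between the resistant and the sensitive line in complete medium. Differences were tested with edgeR's quasi-likelihood test, with p-values adjusted by Benjamini-Hochberg over all genes tested, and a gene with an adjusted p under 0.05 is said to be called. Of 24 collagen genes tested, 8 were higher and 13 lower in cis, while 78.5% of all genes tested were called (39.4% higher and 39.1% lower). Changes of at least 2-fold among the called genes were found for 17 of the 24, 7 higher and 10 lower, against 24.6% of all genes. The median log2 fold change of the 24 was -0.60, and that of all genes -0.00407.

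The type I chains, the major fibril-forming collagen of most tissues, were lower in cis. COL1A1 (chr17:48261462-48278993, GRCh37) was at 161, 164 and 162 CPM in wt and at 4.17, 4.60 and 3.28 CPM in cis (log2 fold change -5.35, SE 0.060, adjusted p = 3.12e-48). Its partner COL1A2 (chr7:94024207-94060539) was at 356, 379 and 372 CPM in wt and at 0.130, 0 and 0.0556 CPM in cis. With 3 counts in the cis libraries together against 20416 in wt, COL1A2 was 6399-fold (95% interval 2189 to 31033) higher in wt, an interval that covers counting error alone. COL6A3 (chr2:238232646-238322971), the long chain of type VI collagen, was at 493, 495 and 482 CPM in wt and at 0, 0.0534 and 0.0556 CPM in cis. It had 2 counts in cis and 27114 in wt, a level 12748-fold (95% interval 3529 to 105268) higher in wt. For all 3 genes the groups lay far apart.

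The other type VI chains differed less between the lines. COL6A2 had a mean of 72.2 ± 1.34 CPM in wt and 46.9 ± 5.34 CPM in cis (log2 fold change -0.65, SE 0.066, adjusted p = 1.32e-06). COL6A1 was at 66.1 ± 1.68 and 67.7 ± 3.44 CPM, with overlapping groups (log2 fold change 0.01, SE 0.042, adjusted p = 0.782). Of the chains that form type VI collagen with COL6A3, COL6A2 was thus lower in cis too, by much less, and COL6A1 did not pass the test.

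Other fibrillar chains were higher in cis. COL11A1 was at 25.1, 27.4 and 27.6 CPM in wt and at 1579.6, 1599 and 1619 CPM in cis, a 59-fold difference (log2 fold change 5.88, SE 0.033, adjusted p = 4.52e-60). COL3A1 rose 2.46-fold, from 1425 ± 15 to 3547 ± 54.6 CPM (log2 fold change 1.30, SE 0.023, adjusted p = 5.37e-40). COL5A2, the most abundant member in wt, averaged 2095 ± 22.7 CPM in wt against 2110.5 ± 15.7 CPM in cis, and the groups overlapped (log2 fold change -0.01, SE 0.023, adjusted p = 0.756). COL2A1, the cartilage collagen, was low in both lines, at 9.52, 8.86 and 9.06 CPM in wt and 0.261, 0.160 and 0.111 CPM in cis, and was lower in cis (log2 fold change -5.69, SE 0.24, adjusted p = 1.59e-25). COL5A1 (log2 fold change -0.94, SE 0.13, adjusted p = 1.48e-08) and COL11A2 (log2 fold change -0.55, adjusted p = 0.0112) were also lower in cis. COL11A2 lost its call without replicate 3 of wt (adjusted p = 0.0753). COL27A1, a fibrillar chain of cartilage, was 1.37-fold higher in cis (log2 fold change 0.45, SE 0.057, adjusted p = 2.84e-09).

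The FACIT genes moved in both directions. COL12A1, which decorates type I fibrils, was at 9.52, 8.81 and 7.54 CPM in wt and at 1308, 1348 and 1284 CPM in cis, 151-fold higher (log2 fold change 7.23, SE 0.042, adjusted p = 5.51e-49). COL14A1, a related FACIT, was at 0.0554, 0.165 and 0 CPM in wt, 4 counts in all, and at 23.4, 23.6 and 24.1 CPM in cis, or 328-fold (95% interval 128 to 1207) higher. COL16A1, another FACIT, rose from 0.443, 0.330 and 0.628 to 1.50, 2.30 and 2.00 CPM (log2 fold change 2.02, SE 0.29, adjusted p = 3.15e-08). In each of these genes every cis library lay above every wt library. COL9A2, a chain of the cartilage FACIT type IX, was lower, at 3.38, 4.13 and 3.40 CPM in wt and 0.782, 0.481 and 0.779 CPM in cis (log2 fold change -2.44, SE 0.23, adjusted p = 5.13e-13). COL9A3 was low and also lower in cis (log2 fold change -1.27, SE 0.41, adjusted p = 0.00517).

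The type IV genes differed pair by pair. COL4A5, a chain of the basement membranes of kidney and other epithelia, was at 64.5, 65.3 and 66.5 CPM in wt and 11.1, 11.4 and 11.5 CPM in cis (log2 fold change -2.55, SE 0.057, adjusted p = 3.67e-36). Its neighbour COL4A6 was at 16.1, 14.8 and 15.3 CPM in wt and at 0, 0.0534 and 0.111 CPM in cis, 3 counts in all, and was 267-fold (95% interval 91.1 to 1298) higher in wt. COL4A2, a chain of the type IV collagen of nearly all basement membranes, was at 0.0554, 0.110 and 0.0524 CPM in wt and 1.17, 1.28 and 1.22 CPM in cis, and 17-fold (95% interval 6.33 to 64.3) higher in cis from 4 counts in wt. COL4A1, its partner, had no count in the wt libraries and 0.391, 0.855 and 0.445 CPM in cis, at least 3.46-fold higher when set against 3 counts per library. It was too low to be tested between these lines. COL4A5 and COL4A6 were thus the pair with counts in wt, and COL4A1 and COL4A2 the pair that was low in both lines and higher in cis.

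COL4A1 and COL4A2 lie head to head on chromosome 13, and COL4A5 and COL4A6 on chromosome X. In GRCh37 COL4A1 is at chr13:110801310-110959504 on the minus strand and COL4A2 at chr13:110958159-111165556 on the plus strand, and their bodies overlap by 1346 bases at the starts. COL4A6 is at chrX:107398837-107682727 on the minus strand and COL4A5 at chrX:107683068-107940775 on the plus strand, 340 bases apart. Their promoter windows are shown because the values of each pair lay in the same direction between the lines, although COL4A1 was not tested. They run from 250 bases before to 50 bases after the start of the gene (RefSeq, GRCh38.p14), read 5′ to 3′ on the strand of the gene, with each match to the motif CCAAT, on either strand (CCAAT or ATTGG), in capitals.
COL4A1: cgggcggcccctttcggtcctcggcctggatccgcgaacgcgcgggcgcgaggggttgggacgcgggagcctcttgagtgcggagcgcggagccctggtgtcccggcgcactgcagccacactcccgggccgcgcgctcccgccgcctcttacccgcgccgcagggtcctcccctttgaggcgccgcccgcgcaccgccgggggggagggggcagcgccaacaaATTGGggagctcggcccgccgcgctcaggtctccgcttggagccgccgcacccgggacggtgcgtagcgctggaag
COL4A2: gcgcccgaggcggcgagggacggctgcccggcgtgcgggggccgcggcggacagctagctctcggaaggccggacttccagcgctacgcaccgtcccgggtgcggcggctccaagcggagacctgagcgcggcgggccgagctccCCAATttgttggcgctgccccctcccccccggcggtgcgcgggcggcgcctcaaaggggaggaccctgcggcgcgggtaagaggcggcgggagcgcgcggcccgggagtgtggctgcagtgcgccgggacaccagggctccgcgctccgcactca
COL4A5: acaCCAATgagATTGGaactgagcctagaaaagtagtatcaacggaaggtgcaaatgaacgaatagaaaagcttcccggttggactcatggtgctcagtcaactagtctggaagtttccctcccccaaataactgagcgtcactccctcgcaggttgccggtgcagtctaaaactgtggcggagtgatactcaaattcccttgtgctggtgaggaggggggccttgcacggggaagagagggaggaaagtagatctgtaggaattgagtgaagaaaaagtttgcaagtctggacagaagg
COL4A6: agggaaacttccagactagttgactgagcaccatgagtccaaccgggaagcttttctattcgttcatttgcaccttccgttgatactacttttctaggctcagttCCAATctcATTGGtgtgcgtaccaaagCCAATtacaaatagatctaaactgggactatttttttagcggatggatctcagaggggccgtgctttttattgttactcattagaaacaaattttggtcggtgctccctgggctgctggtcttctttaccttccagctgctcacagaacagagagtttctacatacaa

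The first of these windows is chr13:110307108-110307407 (minus strand) and the next chr13:110307034-110307333 (plus strand). The starts of COL4A1 and COL4A2 are 127 bases apart and the windows share 226 bases, so the CCAAT match of the COL4A1 window and that of the COL4A2 window are read from opposite strands of largely the same sequence. The GC content was 76.7% and 77.7%, and neither window held the letters TATAAA, and they held 2 and 1 matches to GGGCGG on either strand. The window of COL4A5 is chrX:108439588-108439887 (plus strand), with 2 CCAAT matches, and that of COL4A6 chrX:108439409-108439708 (minus strand), with 3. The starts of this pair are 380 bases apart and 121 bases are shared. Both CCAAT matches of the COL4A5 window lie in the shared bases. They are the same bases as the first and second matches of the COL4A6 window, read from the opposite strand. A second start of COL4A6, 1416 bases from that of COL4A5, had no CCAAT match in its window. Of 35116 windows of all genes, 34.6% held CCAAT, 45.0% GGGCGG and 11.5% TATAAA, all on either strand, and of the 44 windows of the 32 collagen genes that matched, 31.8%, 54.5% and 18.2% did. A match is a description of these letters, not a binding site.

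The remaining members were of lower level. COL7A1, which anchors the epidermal basement membrane, averaged 15.8 ± 0.598 CPM in wt against 5.17 ± 0.736 CPM in cis (log2 fold change -1.63, SE 0.10, adjusted p = 2.73e-19), and COL26A1 at 26.7 ± 2.10 and 7.02 ± 0.630 CPM (log2 fold change -1.95, SE 0.084, adjusted p = 5.89e-25). COL23A1, a transmembrane collagen, was 2.02-fold higher in cis (log2 fold change 1.01, SE 0.060, adjusted p = 6.55e-20). For COL18A1, the source of endostatin, the groups overlapped (log2 fold change 0.23, SE 0.14, adjusted p = 0.204), and its exons share 1563 bases with SLC19A1 on the opposite strand, so without a stated strand setting its counts may hold reads of that gene.

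**Figure D2:**
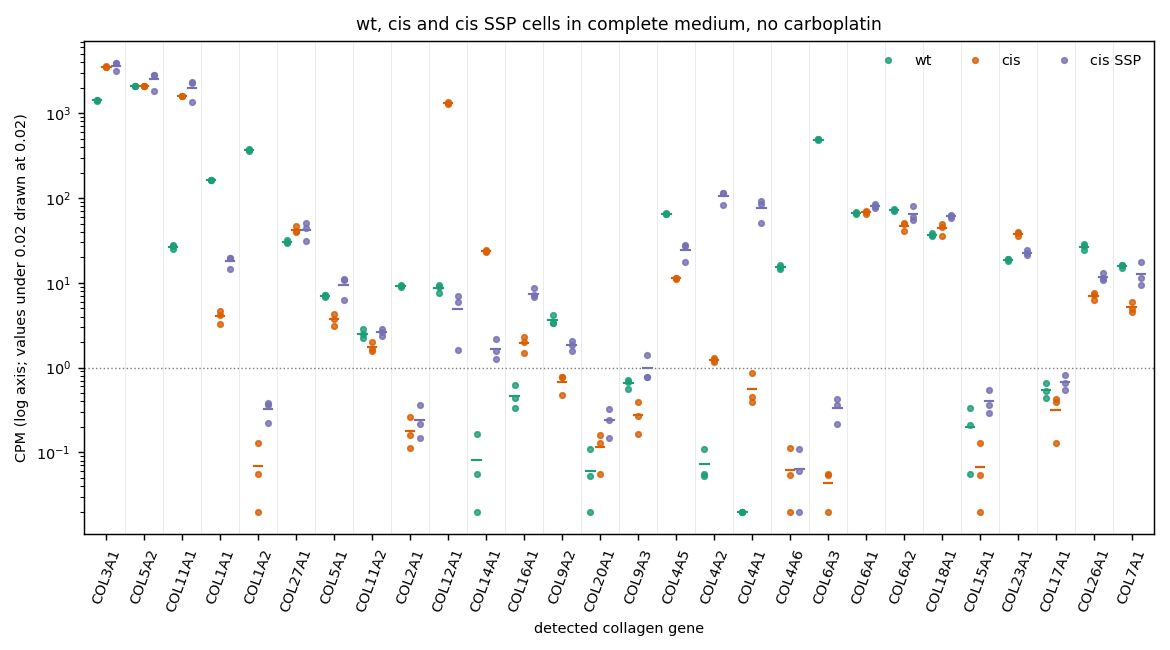
Level of the detected collagen genes in the wt, cis and cis SSP libraries in complete medium without carboplatin, in CPM on a log axis, with a point for each library and a bar for the mean of 3 (dotted line at 1 CPM). COL3A1 and COL5A2 stay near the top in the 3 lines, COL12A1 is high in cis, and COL4A1 and COL4A2 are high in cis SSP.

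Fibroblast markers also differed between the lines, though not all of them in the same way. A list of 8 fibroblast genes summed to 1293 to 1311 CPM in the wt libraries, to 99.9 to 102 CPM in cis and to 369.6 to 449 CPM in cis SSP, with 6, 4 and 7 of the 8 at 1 CPM or more. POSTN, a matrix protein, made up most of the sum in wt, at 871 CPM against 6.83 CPM in cis and 5.64 CPM in cis SSP. PDGFRA, a growth factor receptor, was at 305, 15.1 and 271 CPM in wt, cis and cis SSP, whereas THY1, also of the list, was at 77.7, 73.8 and 110 CPM. DCN, a proteoglycan that fibroblasts make in quantity, averaged 0.490 CPM in wt, 0.628 CPM in cis and 24.7 CPM in cis SSP, and FAP, a marker of activated fibroblasts, was at 0 in wt, cis and cis SSP. Epithelial markers summed to 1.66 to 2.09 CPM in wt, 16.3 to 19.4 CPM in cis and 9.41 to 16 CPM in cis SSP. The part of these markers in the collagen differences was not tested. In bulk libraries fewer cells of a type and less RNA per cell cannot be told apart.

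Of 56 other genes of collagen making, binding and breakdown, 48 were tested between cis and wt, 20 of which were higher and 21 lower, while 39.4% and 39.1% of all genes tested were. MMP1, a collagenase that cleaves fibrillar collagen, had one of the largest differences, from 28.4 ± 0.619 to 2375 ± 44.1 CPM (log2 fold change 6.37, SE 0.032, adjusted p = 1.92e-61). P3H2, a prolyl 3-hydroxylase, and TLL2, a relative of the protease that trims procollagen, were higher too (log2 fold changes 3.65 and 2.83). Lower were TIMP3, an inhibitor of matrix metalloproteinases (log2 fold change -7.67, SE 0.093, adjusted p = 5.75e-47), ITGA1, the α chain of a collagen receptor (log2 fold change -6.83), and PLOD2, a lysyl hydroxylase of collagen (log2 fold change -3.51).

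The second comparison asks how the collagen genes of cis SSP cells differ from those of the cis cells they grew out of. Of 21 genes tested, 10 were higher and 3 lower in cis SSP, while 29.1% of all genes tested were called, 15.8% higher and 13.3% lower. Their median log2 fold change was 0.56, against 0.0102 over all genes. Without replicate 1 of cis SSP, 20 of 22 were called, 17 higher and 3 lower, against 65.4% of all genes tested.

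COL4A1 and COL4A2 had the largest rises. COL4A1 was at 0.391, 0.855 and 0.445 CPM in cis and at 50.9, 91.9 and 84.3 CPM in cis SSP, 129-fold higher (log2 fold change 7.02, SE 0.41, adjusted p = 1.41e-04). COL4A2 was at 1.17, 1.28 and 1.22 CPM in cis and 83.4, 115 and 115 CPM in cis SSP, 84-fold higher (log2 fold change 6.39, SE 0.22, adjusted p = 2.86e-05). Every cis SSP library lay far above the cis libraries in both genes, and without replicate 1 the log2 fold changes were 7.25 and 6.56. COL4A5 rose as well, to 17.5, 27.9 and 27.4 CPM (log2 fold change 1.09, SE 0.21, adjusted p = 0.0116), whereas COL4A6 was too low to be tested, at 0, 0.0603 and 0.109 CPM. COL4A5 lost its call without any 1 of the cis libraries (adjusted p = 0.0512 to 0.0515). It kept the call without replicate 1 of cis SSP (log2 fold change 1.30, adjusted p = 2.37e-16).

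The 2 FACIT genes that were high in cis were low in cis SSP. COL12A1 was at 1308, 1348 and 1284 CPM in cis and at 1.61, 7.06 and 5.96 CPM in cis SSP, 267-fold lower (log2 fold change -8.06, SE 0.57, adjusted p = 2.97e-04). COL14A1 was at 1.25, 1.57 and 2.19 CPM in cis SSP, 14.1-fold lower than in cis (log2 fold change -3.82, SE 0.20, adjusted p = 1.11e-04). In wt COL12A1 was at 9.52, 8.81 and 7.54 CPM, and wt and cis SSP were not tested against each other. Other FACIT genes rose, among them COL16A1 to 8.58, 6.76 and 7.10 CPM (log2 fold change 1.91, SE 0.19, adjusted p = 9.27e-04), COL9A2 to 2.05, 1.87 and 1.58 CPM (log2 fold change 1.41, SE 0.24, adjusted p = 0.00745) and COL9A3 to 1.39, 0.784 and 0.765 CPM (log2 fold change 1.78, SE 0.41, adjusted p = 0.0202). COL9A3 lost its call without replicate 2 or 3 of cis (adjusted p = 0.0842 and 0.0835). It kept the call without replicate 1 of cis SSP (log2 fold change 1.51, adjusted p = 0.00434).

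Among the fibrillar genes, COL1A1 rose from 4.17, 4.60 and 3.28 CPM in cis to 19.7, 14.7 and 19.6 CPM in cis SSP (log2 fold change 2.14, SE 0.18, adjusted p = 5.78e-04). It stayed below its wt libraries, and COL1A2 stayed under 1 CPM, at 0.220, 0.362 and 0.382 CPM. COL5A1 rose 2.49-fold (log2 fold change 1.32, SE 0.27, adjusted p = 0.0147) and lost its call without replicate 1 or 3 of cis (adjusted p = 0.0568 and 0.0641). It kept the call without replicate 1 of cis SSP (log2 fold change 1.55, adjusted p = 1.99e-12). The abundant COL3A1, COL5A2 and COL11A1 did not pass the test (adjusted p = 0.900, 0.408 and 0.363), with a fold of 1.02, 1.19 and 1.23. In replicate 1 of cis SSP, COL11A1 had the lowest of 1358, 2323 and 2287 CPM and COL5A2 the lowest of 1837, 2865 and 2863 CPM. Without that library COL11A1 (log2 fold change 0.54, SE 0.028, adjusted p = 2.29e-18) and COL5A2 (log2 fold change 0.45, SE 0.027, adjusted p = 1.66e-16) were called. So was COL3A1, with a smaller change (log2 fold change 0.14, SE 0.026, adjusted p = 1.28e-05).

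COL23A1 fell 1.71-fold in cis SSP (log2 fold change -0.77, SE 0.098, adjusted p = 0.00225), whereas COL7A1 (log2 fold change 1.28, SE 0.24, adjusted p = 0.0110) and COL26A1 (log2 fold change 0.72, SE 0.12, adjusted p = 0.00665) rose. COL7A1 lost its call without replicate 1 or 3 of cis (adjusted p = 0.0560 and 0.0602). It kept the call without replicate 1 of cis SSP (log2 fold change 1.02, adjusted p = 1.67e-08). Of the type VI genes, COL6A1 (log2 fold change 0.22, SE 0.10, adjusted p = 0.161) and COL6A2 (log2 fold change 0.45, SE 0.16, adjusted p = 0.0826) did not pass, and COL6A3 was not tested at 0.367, 0.422 and 0.219 CPM. Both COL6A1 (log2 fold change 0.29, adjusted p = 2.48e-06) and COL6A2 (log2 fold change 0.31, adjusted p = 0.0119) were called without replicate 1 of cis SSP. Of the other genes of the pathway, 44 were tested, of which 11 were higher and 9 lower in cis SSP, against 29.1% of all genes tested in either direction. Without replicate 1 of cis SSP, 18 of 47 were higher and 17 lower, against 65.4%. Between cis and cis SSP the fibroblast markers DCN and LUM, proteoglycans of the matrix, went from 0.628 to 24.7 CPM and from 0.616 to 4.89 CPM. Of the same list PDGFRA, PDGFRB and THY1 were also higher in cis SSP. ACTA2 went from 3.01 to 1.25 CPM, POSTN went from 6.83 to 5.64 CPM, and FAP stayed at 0. The part of these markers in these differences was not tested.

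**Figure D3:**
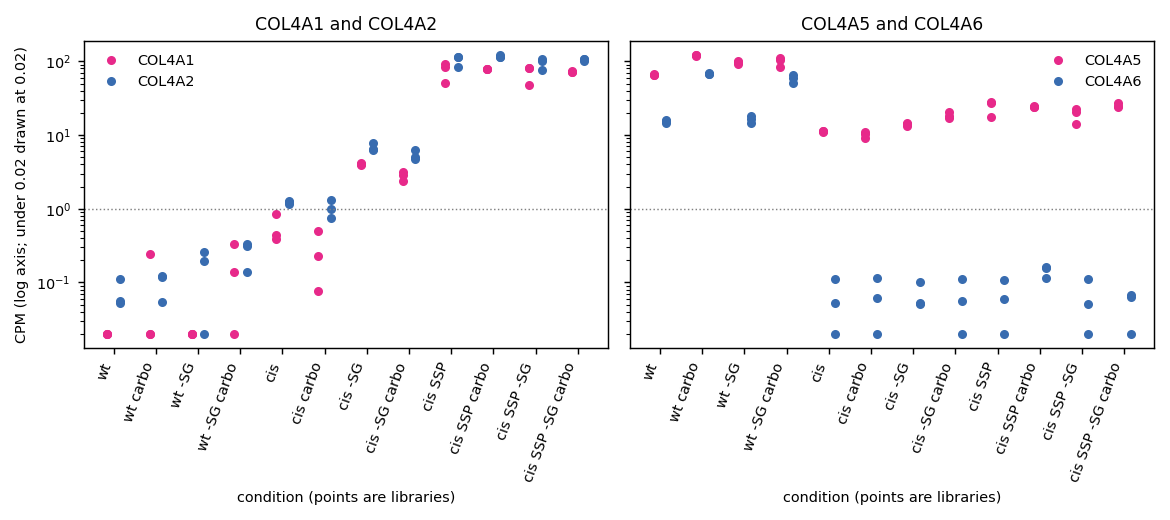
Level of COL4A1 and COL4A2 (left) and of COL4A5 and COL4A6 (right) in the 36 libraries, in CPM on a log axis, with a point for each library, values under 0.02 drawn at 0.02 and a dotted line at 1 CPM. COL4A1 and COL4A2 lie under 1 CPM in the wt conditions, above it in cis -SG and highest in the cis SSP conditions, and COL4A6 lies above 1 CPM in the wt conditions alone.

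Within the pairs the chains kept different proportions. Per length, COL4A1 was 0.703 ± 0.0930 times COL4A2 in cis SSP (n = 3) and 0.589 ± 0.0495 times in cis -SG. COL4A5 was 4.36 ± 0.229 times COL4A6 in wt, 5.99 ± 0.522 times in wt -SG and 1.81 ± 0.00431 times in wt carbo. Type I collagen is built of COL1A1 and COL1A2 chains, with COL1A1 in excess. Per length, COL1A1 transcripts were 0.378 ± 0.00929 times those of COL1A2 in wt, 0.201 ± 0.00345 times in wt -SG, 0.971 ± 0.0131 times in wt carbo and 1.12 ± 0.0104 times in wt -SG carbo. The ranges of the ratio in wt and wt carbo did not overlap.

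COL3A1 and COL5A2, the most abundant pair, are neighbours on chromosome 2, at chr2:189839099-189877472 and chr2:189896624-190090038 in GRCh37, 19151 bases apart on opposite strands. Per length, COL3A1 was 0.846 ± 4.82e-04 times COL5A2 in wt, 2.09 ± 0.0312 times in cis and 0.460 ± 0.00459 times in cis -SG. COL5A1, the chain with which COL5A2 forms type V collagen, had at most 0.00326 ± 1.31e-04 of the level of COL5A2 in any condition. COL6A1 was 0.751 ± 0.0141 times COL6A2 in wt, 1.19 ± 0.0878 times in cis and 0.460 ± 0.0473 times in cis -SG.

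The third comparison asks how carboplatin changes the collagen genes in each line. In wt cells in complete medium, 15 of 23 collagen genes tested were higher and 6 lower with carboplatin, while 77.8% of all genes tested were called, 38.9% higher and 39.0% lower. The median log2 fold change of the 23 was 0.50, against -0.000736 over all genes. A called change of at least 2-fold was found for 11 of the 23, 9 higher and 2 lower, against 19.1% of all genes.

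COL17A1, a hemidesmosome protein of basal epithelial cells, had the largest rise. It was at 0.443, 0.661 and 0.524 CPM in wt and at 19.2, 18.5 and 17.4 CPM in wt carbo, 33.7-fold higher (log2 fold change 5.07, SE 0.15, adjusted p = 2.64e-149). COL1A1 was at 161, 164 and 162 CPM in wt and 855, 867 and 855 CPM in wt carbo, 5.31-fold higher (log2 fold change 2.41, SE 0.021). In both genes every treated library lay far above every untreated one, and both were called. COL1A2 rose less, 2.07-fold from 369 ± 12 to 759 ± 16.4 CPM (log2 fold change 1.05, SE 0.019, adjusted p = 6.45e-252).

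COL4A6 was at 16.1, 14.8 and 15.3 CPM in wt and 66.3, 69.5 and 68 CPM in wt carbo (log2 fold change 2.15, SE 0.052, adjusted p = 1.52e-198). COL4A5 rose to 117, 123 and 120.4 CPM, 1.84-fold (log2 fold change 0.88, SE 0.033, adjusted p = 4.55e-113), less than its neighbour. COL4A1 was at 0, 0.244 and 0 CPM and COL4A2 at 0.0540, 0.122 and 0.117 CPM in wt carbo, too low to be tested. COL18A1 was at 39.1, 36.3 and 35.4 and 85, 86.7 and 88.9 CPM (log2 fold change 1.24, SE 0.040, adjusted p = 3.11e-136). Of the type VI genes, COL6A1 rose 1.93-fold (log2 fold change 0.95, SE 0.032, adjusted p = 4.48e-128), COL6A3 1.41-fold and COL6A2 1.32-fold. All 3 type VI genes were thus higher with carboplatin in wt.

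Chains of cartilage fibrils and FACIT genes rose from low levels. COL11A2 was at 2.21, 2.48 and 2.88 CPM in wt and 6.70, 7.07 and 9.01 CPM in wt carbo (log2 fold change 1.59, SE 0.14, adjusted p = 1.52e-27). COL16A1 was at 1.46, 1.28 and 1.35 CPM in wt carbo (log2 fold change 1.53, SE 0.32, adjusted p = 3.38e-06), and COL9A2 at 9.23, 10.9 and 10 CPM (log2 fold change 1.47, SE 0.12, adjusted p = 4.25e-32). Their treated libraries lay above the untreated ones. COL27A1 was 2.02-fold higher (log2 fold change 1.01, SE 0.046, adjusted p = 4.60e-84).

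COL26A1 had the largest fall, from 24.5, 28.6 and 27.1 CPM in wt to 3.02, 3.84 and 4.04 CPM in wt carbo, 7.35-fold lower (log2 fold change -2.88, SE 0.093, adjusted p = 3.13e-137). COL2A1 fell 2.18-fold (log2 fold change -1.12, SE 0.12, adjusted p = 2.60e-20) and COL23A1 1.82-fold (log2 fold change -0.86, SE 0.079, adjusted p = 1.85e-25). The abundant COL3A1 and COL5A2 fell by less, 1.29-fold and 1.17-fold, with no overlap between groups. COL5A1 (log2 fold change -0.18, SE 0.11, adjusted p = 0.126) and COL9A3 (log2 fold change 0.10, SE 0.35, adjusted p = 0.808) did not pass. The fibroblast markers summed to 1238 to 1245 CPM with carboplatin, against 1293 to 1311 CPM without it. Within that sum ACTA2, smooth muscle actin, went from 33.7 to 109.7 CPM and PDGFRA from 305 to 198 CPM. The 5 epithelial markers summed to 16.3 to 17 CPM with and 1.66 to 2.09 CPM without carboplatin, with 3 and 0 of them at 1 CPM or more. The keratin genes KRT8, KRT18 and KRT19 were at 5.58, 5.06 and 4.80 CPM in wt carbo and at 0.345, 0.612 and 0.0175 CPM in wt. EPCAM, of the same list, was at 0.953 and 0.851 CPM and CDH1 at 0.209 and 0.0183 CPM. In cis, where COL17A1 had its lowest mean, KRT8, KRT18 and KRT19 were at 0.589, 17.1 and 0.0620 CPM. The part of these markers in the collagen changes was not tested. Of 48 pathway genes tested with carboplatin in wt, 23 were higher and 22 lower, while 38.9% and 39.0% of all genes tested were. MMP9, a gelatinase (log2 fold change 4.96, SE 0.22, adjusted p = 9.82e-90), LOXL4, a lysyl oxidase that cross-links collagen (log2 fold change 3.55, SE 0.11, adjusted p = 1.50e-149), and DDR1, a collagen receptor kinase (log2 fold change 3.32, SE 0.054, adjusted p = 1.29e-307), had the largest rises. The largest falls were of TIMP2, an inhibitor of matrix metalloproteinases (log2 fold change -1.73, SE 0.067, adjusted p = 1.13e-105), ADAMTS14, a procollagen peptidase (log2 fold change -1.35, SE 0.32, adjusted p = 3.74e-05), and LOXL3, another lysyl oxidase (log2 fold change -1.27, SE 0.11, adjusted p = 7.18e-29).

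**Figure D4:**
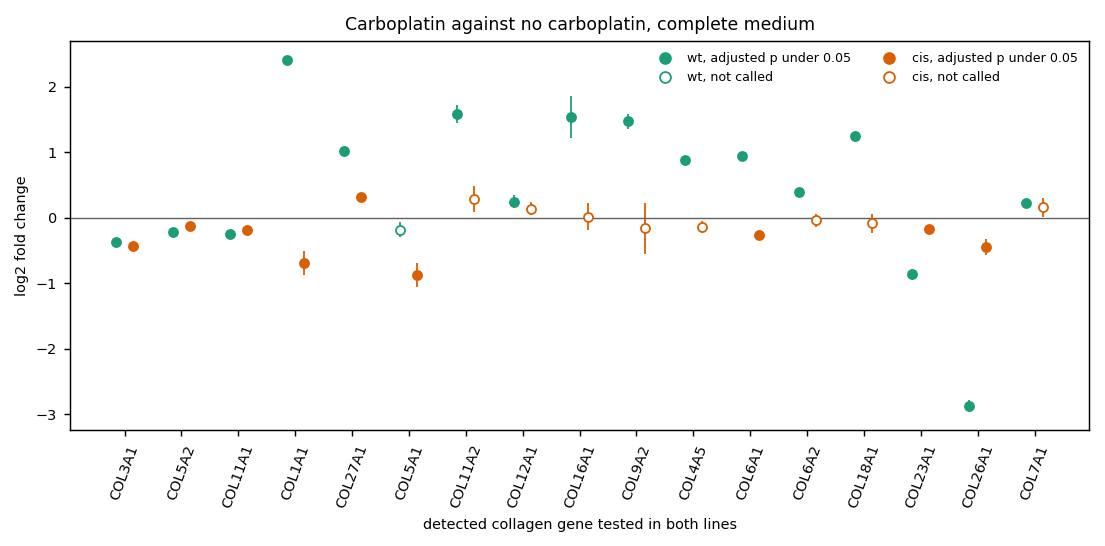
Log2 fold change with carboplatin (SE as bars) on the vertical axis, in complete medium, of the 17 detected collagen genes tested in both wt (green) and cis (orange), with filled points for an adjusted p under 0.05. The green points of COL1A1, COL11A2, COL16A1, COL9A2 and COL18A1 lie above 1, the orange points lie between -0.88 and 0.31, and COL26A1 is lowest in wt.

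In cis cells most collagen genes did not pass the test with carboplatin. Of 19 genes tested, 1 was higher and 8 lower, while 20.1% of all genes tested were called, 9.27% higher and 10.8% lower. No collagen gene had a called change of at least 2-fold, against 0.334% of all genes. The median log2 fold change was -0.14, against 0.0028 over all genes. COL5A1 had the largest fall (log2 fold change -0.88, SE 0.19, adjusted p = 0.00104), followed by COL1A1, at 4.17, 4.60 and 3.28 CPM in cis and 2.01, 3.18 and 2.36 CPM in cis carbo (log2 fold change -0.69, SE 0.18, adjusted p = 0.00738). COL1A1 lost its call without replicate 2 of cis or replicate 1 or 3 of cis carbo (adjusted p = 0.0675, 0.0714 and 0.0522). COL3A1 fell 1.36-fold (log2 fold change -0.44, SE 0.023, adjusted p = 2.24e-14), and COL27A1 was the member that rose, 1.24-fold (log2 fold change 0.31, SE 0.064, adjusted p = 0.00232).

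The responses of both lines were compared by an interaction term over the 4 conditions. Of 25 collagen genes tested, the response differed in 14, 3 of them with a more positive and 11 with a more negative response in cis, while 57.6% of all genes tested were called (30.3% and 27.2%). The response of COL1A1 differed by -3.10 on the log2 scale, cis minus wt (SE 0.14, adjusted p = 7.60e-27), with a rise in wt and a fall in cis. That of COL26A1 differed by 2.44 (SE 0.17, adjusted p = 5.30e-19), and it fell further in wt. COL6A1 rose in wt and fell in cis (difference -1.20, SE 0.056, adjusted p = 3.28e-27).

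In cis SSP cells 4 of 24 collagen genes were called with carboplatin, 2 higher and 2 lower, against 2.72% of all genes tested (1.97% higher and 0.749% lower). COL17A1 was at 0.807, 0.664 and 0.546 CPM in cis SSP and 3.48, 3.12 and 2.92 CPM in cis SSP carbo (log2 fold change 2.28, SE 0.20, adjusted p = 0.00560). COL1A2 rose from 0.220, 0.362 and 0.382 to 1.04, 0.822 and 0.974 CPM (log2 fold change 1.54, SE 0.28, adjusted p = 0.0478). The groups did not overlap in either gene. COL26A1 (log2 fold change -0.72, SE 0.12, adjusted p = 0.0346) and COL23A1 (log2 fold change -0.56, SE 0.096, adjusted p = 0.0400) fell. COL17A1 lost its call without any 1 of the cis SSP carbo libraries (adjusted p = 0.0596 to 0.0602). COL1A2, COL26A1 and COL23A1 lost theirs without any 1 of the 6 libraries other than replicate 1 of cis SSP, with adjusted p-values of 0.147 to 0.240, 0.0986 to 0.206 and 0.109 to 0.237. Without replicate 1 of cis SSP, 16 of 24 were called, 5 higher and 11 lower, against 41.2% of all genes tested, and COL17A1 then had a log2 fold change of 2.41, COL1A2 of 1.35 and COL3A1 of -0.68. COL3A1 had an adjusted p of 0.0923 with that library.

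The fourth comparison asks how the absence of serine and glycine, both of which cells can use as sources of the glycine in the helix, changes the collagen genes. In wt cells 7 of 24 genes tested were higher and 5 lower, while 49.2% of all genes tested were called, 24.1% higher and 25.1% lower. None had a called change of at least 2-fold, and the median log2 fold change was 0.08, against 0.0085 over all genes. COL1A1 fell 1.64-fold, from 162 ± 1.60 to 98.7 ± 2.69 CPM (log2 fold change -0.72, SE 0.031, adjusted p = 2.01e-13), while COL1A2 rose 1.14-fold (log2 fold change 0.19, SE 0.025, adjusted p = 2.66e-06). COL4A5 was at 96.6, 99.4 and 93.1 CPM in wt -SG, 1.48-fold higher (log2 fold change 0.56, SE 0.037, adjusted p = 1.16e-10), while COL4A6, at 18.2, 16.8 and 14.7 CPM, did not pass (log2 fold change 0.12, SE 0.079, adjusted p = 0.241). In the same comparison COL6A3 was 1.32-fold higher (log2 fold change 0.40, SE 0.072, adjusted p = 0.00959). COL3A1 fell 1.05-fold and COL5A2 1.12-fold.

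In cis cells deprivation changed most of the collagen genes tested. Of 23, 13 were higher and 7 lower, while 75.0% of all genes tested were called, 37.6% higher and 37.4% lower. Called changes of at least 2-fold were found for 11, 9 higher and 2 lower, against 15.6% of all genes, and the median log2 fold change was 0.36, against 0.012 over all genes.

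COL3A1, the most abundant member in cis, had the largest fall. It was at 3511, 3520.4 and 3609.8 CPM in cis and 782, 791 and 769 CPM in cis -SG, 4.35-fold lower (log2 fold change -2.12, SE 0.028, adjusted p = 2.18e-45). COL5A2, its neighbour on the chromosome, was at 2093, 2124 and 2114 CPM in cis and 2134, 2115 and 2085 CPM in cis -SG (fold 1.04, adjusted p = 0.0350), with overlapping groups. COL5A2 lost its call without any 1 of these libraries other than replicate 3 of cis (adjusted p = 0.0620 to 0.190). COL11A1 fell 1.33-fold (log2 fold change -0.41, SE 0.027, adjusted p = 2.17e-18), COL12A1 1.30-fold (log2 fold change -0.38, SE 0.036, adjusted p = 8.39e-09) and COL14A1 2.28-fold (log2 fold change -1.19, SE 0.076, adjusted p = 6.97e-19).

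The largest rises were of low genes. COL16A1 was at 1.50, 2.30 and 2.00 CPM in cis and 15.2, 16.2 and 15.1 CPM in cis -SG, 8.24-fold higher (log2 fold change 3.04, SE 0.12, adjusted p = 4.33e-26). COL4A1 rose from 0.391, 0.855 and 0.445 to 4.03, 4.23 and 3.91 CPM (log2 fold change 2.86, SE 0.23, adjusted p = 3.46e-15), and COL4A2 from 1.17, 1.28 and 1.22 to 6.37, 7.83 and 6.30 CPM (log2 fold change 2.53, SE 0.17, adjusted p = 4.79e-18). In these 3 genes every deprived library lay above every fed one. In cis SSP, which grew out under this deprivation, COL4A1 was at 75.7 ± 21.8 CPM and COL4A2 at 105 ± 18.4 CPM. COL11A2 rose to 6.12, 6.06 and 8.69 CPM (log2 fold change 2.05, SE 0.17, adjusted p = 1.17e-13) and COL7A1 to 19, 16.5 and 21 CPM (log2 fold change 1.92, SE 0.11, adjusted p = 2.33e-18). COL15A1 was at 0.130, 0.0534 and 0 CPM in cis, 3 counts in all, and at 1.07, 0.992 and 1.07 CPM in cis -SG, 18.1-fold (95% interval 5.91 to 90.2) higher. COL20A1, with 6 counts in cis, was 6.53-fold (95% interval 2.77 to 18.7) higher in cis -SG.

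Among the type VI genes COL6A1 fell 1.79-fold (log2 fold change -0.84, SE 0.052, adjusted p = 2.00e-17) and COL6A2 rose 1.44-fold (log2 fold change 0.52, SE 0.063, adjusted p = 9.94e-07). COL1A1 did not pass (log2 fold change -0.09, SE 0.15, adjusted p = 0.611), and COL5A1 rose 2.38-fold (log2 fold change 1.25, SE 0.12, adjusted p = 1.59e-12). The fibroblast markers summed to 54.4 to 58.7 CPM in cis -SG and to 99.9 to 102 CPM in cis. The epithelial markers summed to 42.2 to 45.1 CPM in cis -SG and to 16.3 to 19.4 CPM in cis, most of it KRT18, at 41.5 and 17.1 CPM. CDH2, a cadherin of the mesenchymal list, was at 98.9 CPM in cis -SG and 12.5 CPM in cis. The other genes of that list differed less, with VIM at 1785 and 1828 CPM, ZEB1 at 83.4 and 78.1 CPM and FN1 at 0.598 and 0.392 CPM. The part of these markers in the collagen changes was not tested. Of 14 tested genes of prolyl and lysyl hydroxylation and glycosylation, 2 were higher and 10 lower in cis -SG, and of 6 genes of collagen folding and export 1 was higher and 4 lower. Of 8 tested collagenases and their inhibitors 5 were higher and 1 lower, and all 4 tested collagen receptors were higher. Over all 46 pathway genes tested, 18 were higher and 20 lower, while 37.6% of all genes tested were higher and 37.4% lower.

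**Figure D5:**
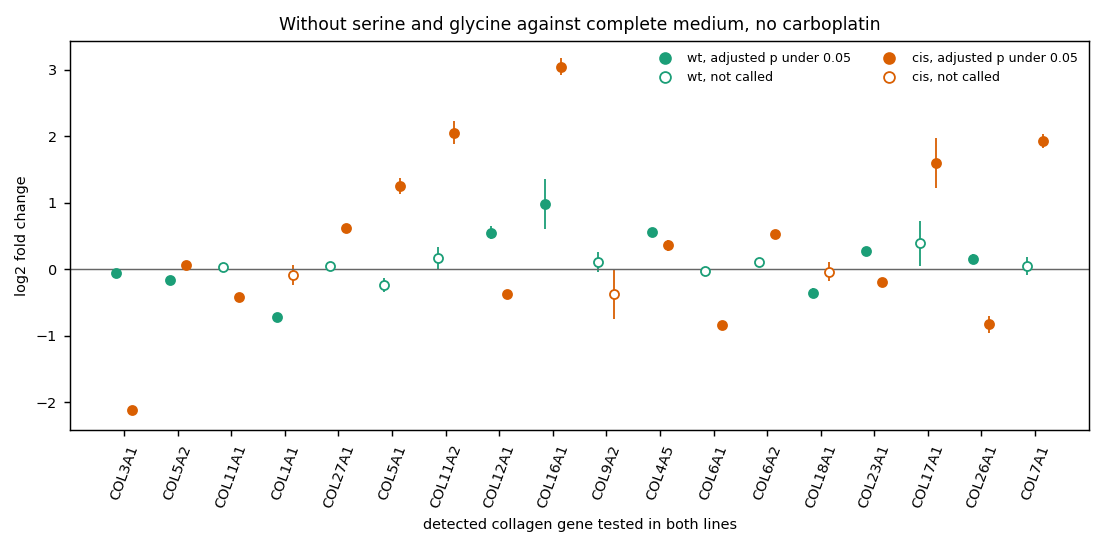
Log2 fold change without serine and glycine (SE as bars) on the vertical axis, of the 18 detected collagen genes tested in both wt (green) and cis (orange), with filled points for an adjusted p under 0.05. COL3A1 lies near 0 in wt and at -2.12 in cis, and COL16A1, COL11A2 and COL7A1 lie higher in cis than in wt.

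The response to deprivation differed between cis and wt in 18 of 29 collagen genes, 11 with a more positive and 7 with a more negative response in cis, while 54.0% of all genes tested were called (27.1% and 26.9%). The response of COL3A1 differed by -2.04 on the log2 scale, cis minus wt (SE 0.031, adjusted p = 3.86e-35). Those of COL11A2 (difference 1.90, adjusted p = 7.35e-08), COL7A1 (1.89, adjusted p = 1.13e-05) and COL5A1 (1.50, adjusted p = 4.41e-10) were more positive in cis. In cis SSP cells edgeR's quasi-likelihood test called none of 23 collagen genes under deprivation (6 at an unadjusted p under 0.05, and 2 called by DESeq2), against 0.0218% of all genes tested. Without replicate 1 of cis SSP and replicate 2 of cis SSP -SG, 14 of 23 were called, all of them lower, against 35.9% of all genes tested. COL1A1 then had a log2 fold change of -0.87 and COL3A1 of -0.36.

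The last comparisons add carboplatin to cells already without serine and glycine. In wt -SG cells 11 of 23 collagen genes were higher and 6 lower with carboplatin, while 68.9% of all genes tested were called, 34.3% higher and 34.6% lower. The median log2 fold change was 0.41. COL17A1 was at 0.542, 0.848 and 0.772 CPM without and 28.2, 26.1 and 27.3 CPM with carboplatin (log2 fold change 5.24, SE 0.13, adjusted p = 3.30e-09), and COL1A1 at 96.8, 102 and 97.5 and 1014, 861 and 986 CPM (log2 fold change 3.28, SE 0.077, adjusted p = 2.37e-09). COL18A1 was at 25.3, 31.4 and 30 and 114, 82.9 and 105 CPM (log2 fold change 1.81, SE 0.13, adjusted p = 4.49e-06). Every treated library lay above the untreated ones in these 3 genes.

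Also in wt -SG cells, COL4A6 was at 18.2, 16.8 and 14.7 CPM without and 64.2, 51 and 60.1 CPM with carboplatin (log2 fold change 1.82, SE 0.11, adjusted p = 4.94e-07). COL6A1 was at 63.9, 62.7 and 68.3 and 191, 176 and 182 CPM (log2 fold change 1.50, SE 0.062, adjusted p = 4.28e-08), and COL9A2 at 4.19, 3.34 and 4.25 and 9.46, 10.5 and 9.66 CPM (log2 fold change 1.34, SE 0.12, adjusted p = 7.47e-06). These too were without overlap. COL26A1 fell from 28.2, 29.5 and 32.1 to 1.96, 2.34 and 2.45 CPM (log2 fold change -3.72, SE 0.11, adjusted p = 7.66e-09) and COL23A1 from 21.6, 22.5 and 23.2 to 8.55, 9.40 and 9.13 CPM (log2 fold change -1.31, SE 0.079, adjusted p = 5.22e-07). In replicate 2 of wt -SG carbo several long collagens were lower than in the other libraries, with COL6A3 at 699, 427 and 687 CPM and COL5A2 at 1996, 1481 and 1980.1 CPM, and neither passed the test (adjusted p = 0.685 and 0.805). Without that library 14 of 25 collagen genes were higher and 7 lower, against 73.3% of all genes tested in either direction, and COL5A2 was called higher (log2 fold change 0.10, SE 0.022, adjusted p = 7.58e-04).

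In cis -SG cells 7 of 24 were called with carboplatin, 2 higher and 5 lower, against 22.5% of all genes tested, and none by 2-fold or more. Without replicate 1 of cis -SG carbo, 12 of 25 were called, 4 higher and 8 lower, against 34.7% of all genes tested. In that condition the counts on no gene made up 8.53% of all counts in replicate 1, 17.9% in replicate 2 and 14.9% in replicate 3. In the other conditions this share was at most 9.31% in a library. The fit without replicate 1 thus kept the libraries with the highest shares. With all libraries kept, COL1A1 fell 1.92-fold (log2 fold change -0.94, SE 0.18, adjusted p = 0.00260), COL16A1 1.52-fold (log2 fold change -0.60, SE 0.087, adjusted p = 3.32e-04) and COL23A1 1.48-fold (log2 fold change -0.56, SE 0.073, adjusted p = 1.41e-04). COL4A5 rose 1.33-fold (log2 fold change 0.41, SE 0.082, adjusted p = 0.00289). In cis SSP -SG cells edgeR called none of 24 (9 at an unadjusted p under 0.05, and 3 called by DESeq2), against 1.47% of all genes tested, and none changed by 2-fold or more with a call, against 0.761%. COL17A1 was at 1.11, 0.957 and 0.554 CPM without and 1.88, 2.38 and 2.32 CPM with carboplatin there (log2 fold change 1.33, SE 0.28, adjusted p = 0.0927). Without replicate 2 of cis SSP -SG, 16 of 24 were called, 11 higher and 5 lower, against 41.1% of all genes tested.

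Across the 12 conditions the means of the detected genes covered very different ranges, given here as a description with no test. Of the fibrillar genes, COL5A2 had the narrowest range of all, 1783 CPM in wt carbo to 2522 CPM in cis SSP. COL3A1 ran from 632 CPM in cis -SG carbo to 3649 CPM in cis SSP. COL11A1 ran from 20.3 CPM in wt -SG carbo to 1989 CPM in cis SSP. The cis and cis SSP conditions thus held the high values of COL11A1. COL1A1 ran from 1.88 CPM in cis -SG carbo to 953 CPM in wt -SG carbo, and its partner COL1A2 from 0.0513 CPM in cis -SG to 759 CPM in wt carbo. The other chains were lower. COL27A1 ran from 30.7 CPM in wt to 66.9 CPM in cis SSP carbo. COL5A1 ran from 2.04 CPM in cis carbo to 9.33 CPM in cis SSP. COL11A2 had 1.73 CPM in cis SSP -SG to 9.30 CPM in cis -SG carbo, and COL2A1 had 0.0185 CPM in cis -SG carbo to 9.15 CPM in wt, so that the cartilage chains of types II and XI had their highest means in different lines.

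Among the FACIT genes, COL12A1 ran from 4.32 CPM in cis SSP -SG to 1432 CPM in cis carbo and COL14A1 from 0.0735 CPM in wt to 25.1 CPM in cis carbo, both highest in the same condition. COL16A1 had 0.467 CPM in wt to 15.5 CPM in cis -SG. COL9A2 had 0.487 CPM in cis -SG carbo to 10.1 CPM in wt carbo, and COL9A3, at the limit of detection, 0.191 CPM in cis -SG carbo to 1.02 CPM in cis SSP -SG carbo. COL20A1, likewise at the limit, had 0.0541 CPM in wt to 1.12 CPM in cis -SG carbo. Among the type IV genes, COL4A2 had 0.0726 CPM in wt to 117 CPM in cis SSP carbo and COL4A1 0 CPM in wt to 78.2 CPM in cis SSP carbo, again with the same conditions at both ends. COL4A5 had 10.2 CPM in cis carbo to 120.0 CPM in wt carbo, and COL4A6 0.0432 CPM in cis SSP -SG carbo to 67.9 CPM in wt carbo.

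Of the type VI genes, COL6A3 had the widest range of the genes with a count in every condition, 0.0364 CPM in cis to 689 CPM in wt carbo. COL6A1 had 36.1 CPM in cis -SG to 183 CPM in wt -SG carbo and COL6A2 45.3 CPM in cis carbo to 103 CPM in wt -SG carbo, so that these chains were present in all conditions. Of the transmembrane genes, COL17A1 had 0.316 CPM in cis to 27.2 CPM in wt -SG carbo and COL23A1 9.03 CPM in wt -SG carbo to 38.1 CPM in cis. In the multiplexins the ranges were 28.9 CPM in wt -SG to 101 CPM in wt -SG carbo for COL18A1 and 0.0613 CPM in cis to 1.04 CPM in cis -SG for COL15A1. COL7A1 had 5.17 CPM in cis to 18.9 CPM in wt -SG carbo, and COL26A1 2.25 CPM in wt -SG carbo to 29.9 CPM in wt -SG, its extremes both in the wt line without serine and glycine. Between 18 and 22 collagen genes were at a mean of 1 CPM or more in each condition, with 18 in cis and cis carbo and 22 in wt carbo, wt -SG carbo and cis SSP -SG carbo.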

How the data were processed

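RNA-seq was performed on 36 libraries of A2780 wt, cis and cis SSP cells. The authors mapped single-end reads to GRCh37.p13 (STAR), assigned them to exons of GENCODE v19 (HTSeq) and deposited the raw counts per gene. The strand setting of the counting is not given in the sources used here. The deposited table has 57820 genes and 3 rows that name no gene, which stayed out of library sizes and tests; reads on no feature made up 4.21% to 17.9% of a library. Symbols, positions and lengths (Ensembl canonical transcript) came from GENCODE v44 on GRCh37. The members, classes, lists and tests were chosen with earlier results of these data known. Groups came from the labels, and replicates were numbered in library order.

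The quasi-likelihood test of edgeR 4.0.16 (R 4.3.3) was used with TMM factors, filterByExpr, estimateDisp and a robust glmQLFit, in a fit of the conditions compared, over all genes, with Benjamini-Hochberg adjustment. The standard error was the absolute log2 fold change divided by the square root of F. Ratios of genes with at most 3 counts in every library of a condition have exact 95% intervals for counting error, and a condition without counts was set to 3 counts per library. All tests were two-sided. The edgeR test was tried on simulated data for cis against wt, cis SSP against cis and the interaction of line and carboplatin. At the higher simulated dispersion the interaction test recovered few of the changed genes. The other comparisons and the counting intervals were not simulated. Total counts of 13074937 to 20441582 per library set the sampling noise. DESeq2 1.42.0, other size factors and filters, one fit over all libraries, removal of the length trend and leaving out libraries were alternatives. Promoter windows came from RefSeq (GRCh38.p14), which matched 32 of the 44 genes.

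Every detected gene is named with its range of condition means. Values in every library are given for genes called with at least a 2-fold change, up to 12 between cis and wt and up to 8 elsewhere, and for the type IV pairs. Of the pathway lists at most 3 genes are named in each direction. Other genes named within a comparison were chosen after their values were seen. Python 3.11.15, pandas 2.3.3 and matplotlib 3.10.9 served for tables and plots.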

Additional observations from a re-analysis of the deposited data

Results flagged for a closer look

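The response to carboplatin, and that to the absence of serine and glycine, differed between cis and wt by edgeR's test of the interaction term in 14 and 18 collagen genes, against 57.6% and 54.0% of all genes tested. Each value is the log2 response of cis minus that of wt, so a negative value means a more negative response in cis.

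For carboplatin the difference was -4.15 for COL17A1, -3.10 for COL1A1, -1.62 for COL9A2, -1.51 for COL16A1, -1.32 for COL18A1, -1.30 for COL11A2 and -1.20 for COL6A1. It was -1.01 for COL4A5, -0.69 for both COL27A1 and COL5A1 and -0.43 for COL6A2. Positive differences were found for COL5A2 (0.10), COL23A1 (0.70) and COL26A1 (2.44).

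For deprivation the difference was -2.44 for COL14A1, -2.04 for COL3A1, -0.97 for COL26A1, -0.91 for COL12A1, -0.80 for COL6A1, -0.45 for COL23A1 and -0.43 for COL11A1. It was 0.24 for COL5A2, 0.44 for COL6A2, 0.58 for COL27A1 and 0.65 for COL1A1. Larger positive differences were 1.22 for COL17A1, 1.50 for COL5A1, 1.89 for COL7A1, 1.90 for COL11A2, 2.08 for COL16A1, 2.28 for COL13A1 and 3.56 for COL15A1. COL14A1 had at most 5 counts in a library of wt or wt -SG, and COL15A1 at most 2 in a library of cis, so these fitted values depend on the constant added to low counts. COL14A1 lost its call without replicate 1 of wt -SG (adjusted p = 0.0535). COL17A1 lost its call without any 1 of the cis -SG libraries (adjusted p = 0.0503 to 0.101). The same held without replicate 1 or 3 of cis or of wt -SG, or replicate 2 or 3 of wt (adjusted p = 0.0570 to 0.168).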

How the results depend on the processing

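Of 222 counts of called or detected genes, 197 stayed within 1.5 times the value reported and 25 did not. Of the log2 fold changes of named genes 4132 counted as unchanged, 144 gained a call, 134 lost one and 8 reversed. A gene uncalled both here and in the alternative counted as unchanged whatever its direction. A reversal was counted only where the gene was called in either of these fits. With at least 10 counts in every library the genes called between cis and wt were 12, in place of 21, since fewer genes were then tested. For cis SSP against cis the count was 20 with the trend over transcript length removed, 23 in one fit over the 36 libraries and 10 to 20 over the fits that omit 1 library. For carboplatin in cis it was 4 in one fit. For carboplatin in cis SSP it was 1 without a filter, 9 with the length trend removed, 10 in one fit and 0 to 16 with a library left out. For deprivation it was 5 in wt in one fit, and in cis SSP 2 by DESeq2, 8 in one fit and 14 without both libraries that stand apart. For carboplatin in deprived cis it was 11 without a filter, 4 in one fit and 5 to 12 with a library left out. In deprived cis SSP it was 3 by DESeq2, 2 with the length trend removed, 11 in one fit and 0 to 16 with a library left out. The cause of these shifts was not tested.

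With 1 library omitted, the log2 fold change of COL27A1 in cis SSP against cis ran from -0.18 to 0.19, and with carboplatin in cis SSP those of COL11A1, COL4A1 and COL4A5 from -0.22 to 0.13, -0.15 to 0.24 and -0.16 to 0.15, the sign changing without replicate 1 of cis SSP. In deprived cis SSP those of COL12A1 and COL4A1 ran from -0.37 to 0.28 and -0.14 to 0.17, the sign changing without replicate 2 of cis SSP -SG. COL5A2 with carboplatin in deprived wt was 0.14 with the length trend removed and ran from -0.11 to 0.10, the last without replicate 2 of wt -SG carbo. With limits of 0.5 and 2 CPM, 31 and 25 genes were detected. Of the genes called, 20 of 21 for cis against wt, 20 of 21 for carboplatin in wt, 19 of 20 for deprivation in cis and 9 of 13 for cis SSP against cis were called in every fit that omits 1 library. Levels under 3 counts per library are not resolved at this depth. No paired analysis was possible because the labels give no replicate numbers within a condition.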

Other observations

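Among the genes below the limit of detection, COL5A3, another type V chain, had its highest level in wt -SG carbo, at 1.26, 0.631 and 1.06 CPM, against 0.394, 0.212 and 0.129 CPM in wt -SG. COL13A1, a transmembrane collagen, was at 0.941, 0.771 and 0.419 CPM in wt and 0.0652, 0 and 0.278 CPM in cis.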
